A study of Mus musculus with 6 samples.

Results

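Heart translation of 32 genes for glucose uptake, glycolysis and glycogen metabolism was examined in a table of 49585 gene rows, and each of the 32 was found there by its symbol. The set was chosen by pathway: 2 glucose transporters, 2 hexokinases, 4 genes for the isomerase and the phosphofructokinases, 3 for the enzymes that make and break fructose 2,6-bisphosphate, 3 for the aldolase and triose phosphate steps, 6 for lower glycolysis, 2 lactate dehydrogenases, and 10 for glycogen, of which 5 serve its breakdown and 5 its synthesis. Ribosome-protected fragments, the stretches of mRNA shielded by ribosomes, were sequenced from hearts of male mice with an age given as 8- or 9-week-old. The 3 partial gravity (PG) libraries came from mice held at 0.167 g on a centrifuge of 15 cm radius turning at 31 rpm, and the 3 ground control (GC) libraries from age-matched mice at 1 g, given as C57BL/6 J, kept in the conditions used aboard the ISS. The labels name no transgene or agent in either group, give the strain for the GC mice alone, and do not say whether the 3 libraries of a group came from separate animals, so p-values measure the spread between these libraries, which may be technical. The labels count 6 GC mice per mission and do not say which of them gave the 3 libraries. Flight and the centrifuge, which the labels give to no GC mouse, cannot be told apart from the level of gravity. A fragment count holds mRNA level and translation together, and in a whole heart fewer cells of a type and less RNA per cell cannot be told apart.

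Glucose enters heart muscle cells mainly through the insulin-responsive transporter GLUT4 (Slc2a4), is trapped by hexokinase, and is split and oxidised to pyruvate by the enzymes of glycolysis. The heart takes most of its energy from fatty acids, and draws on glucose and on its own glycogen when work rises or oxygen falls. Phosphofructokinase sets the pace of the pathway under the control of fructose 2,6-bisphosphate, and glycogen phosphorylase, switched on by phosphorylase kinase, releases glucose units from glycogen. Several steps have a muscle form and a form found more widely, each from its own gene.

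None of the 32 genes passed the threshold between PG and GC, which was an adjusted p below 0.05 in the quasi-likelihood fit of edgeR (Benjamini-Hochberg, over every gene tested). Of the 32 genes, 30 passed the filter on low counts, and the other two, Pfkfb1 and Pgm1, are described with their groups. Of all 9124 genes tested, 53 passed (0.581%), 23 of them higher in PG (0.252%) and 30 lower (0.329%). Values were nonetheless mostly lower in PG: the log2 fold change of PG over GC was negative for 23 of the 30 and positive for 7, where 50.2% of all genes tested were negative. At an unadjusted p below 0.05, 10 of the 30 were lower in PG and 2 higher, against 5.62% and 4.82% of all genes tested. Among unique reads, from which 4 of the genes took their values, these shares were 5.73% and 5.01% (50.2% negative). The 10 lower and 2 higher genes became 4 and 3 with library size alone, 5 and 2 with the authors' expression values, and 5 and 1 with total gene reads or with unique reads for every gene. Without PG replicate 1 or 2 they were 4 and 2 or 5 and 1, and without GC replicate 1 or 2 they were 4 and 3 or 5 and 1. Unique reads apart, the shares over all genes at that p-value are not given for these other settings. The background itself moved with library size alone, where the median log2 fold change of all genes tested was 0.06. The counts under that setting therefore do not describe these genes apart from all others. In 10 genes all 3 PG values lay below all 3 GC values, an order seen in 8.25% of all genes tested, and in 2 genes they lay above (8.06%). Unique reads gave 8.2% below and 7.86% above over all genes. The median log2 fold change of the 30 was -0.15, beside 0.00 for all genes tested. limma-voom also called none of the 30 (0.877% of all genes), and DESeq2 called Pfkl and Eno3 lower (4.81% of genes with an adjusted p were).

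All 6 genes of lower glycolysis (Pgk1, Pgam1, Pgam2, Eno1, Eno3 and Pkm), which carry the carbon from bisphosphoglycerate to pyruvate, had negative log2 fold changes, ranging between -0.66 and -0.30 with a median of -0.37. Each of the 6 had an unadjusted p below 0.05, and in 4 the PG and GC values did not overlap. Adjusted over all genes by edgeR, their p-values lay between 0.229 and 0.460. Pgk1, Eno1 and Pkm are counted here by total reads, most of which also matched other places, and their unique reads gave log2 fold changes of -0.35 ± 0.24, -0.23 ± 0.29 and -0.22 ± 0.12 (edgeR adjusted p = 0.650, 0.849 and 0.534). Positive log2 fold changes were found for 7 genes. For the bifunctional enzyme Pfkfb2 (0.78) and the brain-type glycogen phosphorylase Pygb (0.26), the lowest PG library exceeded the highest GC library. For Ldha (0.26, unique reads), Pfkp (0.25), Gyg (0.13) and the hexokinases Hk2 (0.22) and Hk1 (0.03), the groups overlapped.

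**Figure D1:**
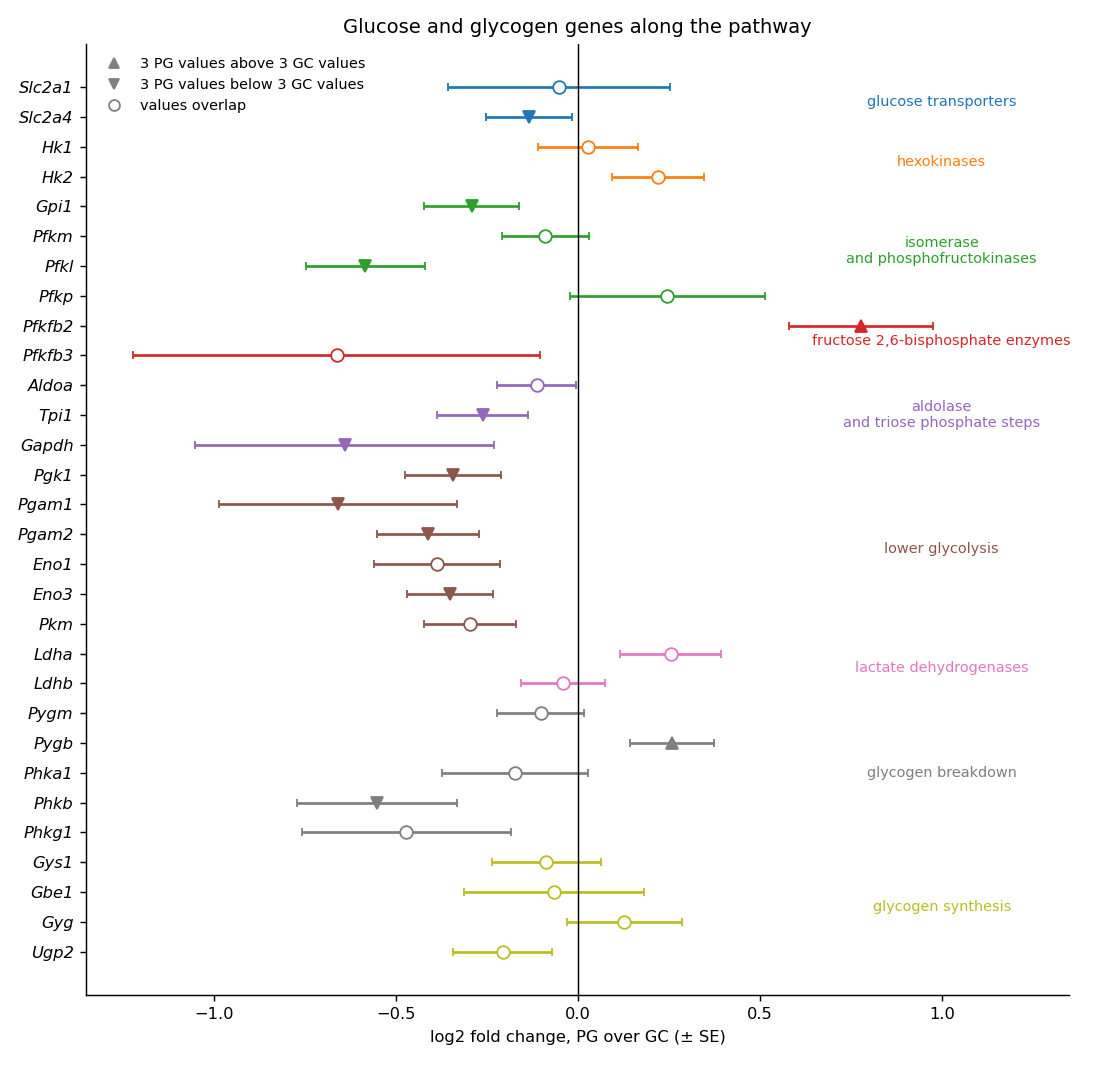
Log2 fold change of PG over GC on the horizontal axis with its standard error (bars) for the 30 genes tested, in pathway order and coloured by step; filled triangles point down or up where the 3 PG values lie below or above the 3 GC values, and open circles mark overlap. The 6 genes of lower glycolysis lie between -0.66 and -0.30, and Pfkfb2 lies farthest to the right at 0.78.

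The stretches of 250 bases before the start sites of Pfkl, Pgam2 and Eno3, whose lower values had the smallest p-values, and of Pygb, higher in PG with nearly all its reads at a single place, are shown 5′ to 3′ from RefSeq (GRCm38.p6), at chr10:78009808-78010057 on the minus strand, chr11:5803797-5804046 on the minus strand, chr11:70656926-70657175 on the plus strand and chr2:150786546-150786795 on the plus strand. Capitals mark matches on either strand to the motifs searched. The search covered the core of hypoxia response elements (ACGTG), to which the transcription factors induced by low oxygen bind, and the form of the E-box that contains this core (CACGTG), which is bound by glucose-responsive and Myc-type factors. It also covered the box of the widely expressed factor Sp1 (GGGCGG), the element that positions the start of transcription in many tissue-specific genes (TATAAA), and the MEF2 consensus.
Pfkl: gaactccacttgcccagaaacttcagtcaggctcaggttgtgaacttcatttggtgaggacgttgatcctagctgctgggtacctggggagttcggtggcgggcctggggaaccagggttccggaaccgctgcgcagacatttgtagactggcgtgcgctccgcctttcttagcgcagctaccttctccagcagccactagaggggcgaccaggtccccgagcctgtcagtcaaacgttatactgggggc
Pgam2: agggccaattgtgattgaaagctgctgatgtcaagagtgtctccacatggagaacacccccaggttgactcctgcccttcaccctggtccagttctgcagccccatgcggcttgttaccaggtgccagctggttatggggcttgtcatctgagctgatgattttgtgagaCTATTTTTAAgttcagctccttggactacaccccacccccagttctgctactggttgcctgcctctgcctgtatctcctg
Eno3: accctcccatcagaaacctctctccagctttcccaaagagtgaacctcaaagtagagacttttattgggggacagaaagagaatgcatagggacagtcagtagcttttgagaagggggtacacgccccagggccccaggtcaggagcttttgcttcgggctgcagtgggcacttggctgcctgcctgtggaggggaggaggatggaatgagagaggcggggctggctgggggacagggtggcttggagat
Pygb: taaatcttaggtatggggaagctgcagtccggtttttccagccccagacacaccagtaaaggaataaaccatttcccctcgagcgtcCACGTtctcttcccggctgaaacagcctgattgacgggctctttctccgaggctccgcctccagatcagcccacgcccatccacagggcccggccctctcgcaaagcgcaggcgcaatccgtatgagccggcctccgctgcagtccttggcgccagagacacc

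Pgam2 carried the MEF2 consensus, the site of a family of muscle transcription factors. Taking the start site listed at the top for each of the 31 genes with a promoter in the table, Pgam2 was the 1 match, where 2.92% of 32851 promoters matched, and a further start site of Pfkfb1 also matched. Pygb carried the hypoxia core, read on the opposite strand. No match was found in these windows of Pfkl and Eno3. The Eno3 window lies inside the span of the gene (chr11:70653125-70662513), so the bases before that span were not searched. Over the same 31 start sites, 12 had the hypoxia core (16.6% of all promoters did), 3 had the E-box (6.02%), 16 had the Sp1 box (32.7%) and none had the TATA element (12.4%). At those start sites, 2 of the 6 genes of lower glycolysis had the hypoxia core and 2 had the Sp1 box. Further start sites, not counted here, of Eno1 had the Sp1 box, of Pkm the hypoxia core and of Pfkfb1 the TATA element. Also not counted were further start sites of Aldoa with the hypoxia core and the Sp1 box. The same holds for the E-box at a further start site of Pfkfb3 and the Sp1 box at one of Pfkfb1. The shares over all promoters count every start site. These are matches of letters only. Slc2a4 had no entry.

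Depth and purity bear on the precision of these values. The libraries held 2416699 to 2935343 exon reads in PG and 2212473 to 3196070 in GC, of which 45.5% to 52.5% fell on Lars2 and Tmem38b alone. The 32 genes held 25603 to 35983 reads per PG library and 28401 to 36960 per GC library. Scaled by summed reads, without TMM factors and with Lars2 and Tmem38b included, no pair of libraries within a group agreed within sampling noise (chi-square per degree of freedom 4.28 to 27.9). The highest values, 27.9 and 16.8, were the pairs of PG replicate 3, which had the largest share on Lars2 and Tmem38b (52.5%). Reads of the ventricular cardiomyocyte markers summed to 50891 to 60127 CPM (counts scaled to library size with TMM factors) in PG and to 63325 to 67546 in GC. All 11 had reads in these heart libraries, and 1, Actc1, was called lower. The marker sums did not overlap between the groups. Of their reads, Actc1 had 56396 in PG and 88077 in GC (log2 fold change -0.76). Pln (0.37) and Ttn (0.06) were positive, and the remaining markers lay between -0.23 (Tnni3) and -0.04 (Ryr2). The part of these sums in the results below was not tested.

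The insulin-responsive transporter Slc2a4 (chr11:69942286-69948216) was the more abundant glucose transporter by far. It had 335.7, 350.8 and 353.1 CPM in the PG libraries, against 370.9, 391.7 and 378.5 CPM in the GC libraries. The groups did not overlap, but the distance was small, a log2 fold change of -0.13 ± 0.12 (SE, n = 3 per group) with an edgeR adjusted p of 0.757. The widely expressed transporter Slc2a1 averaged 17.4 ± 3.89 CPM in PG and 18.3 ± 7.21 in GC (SD, n = 3), with overlapping values. The slight negative fold change (log2 -0.05) changed sign under 5 of the other settings that kept every library, library size alone among them. Per kb of exon, Slc2a4 made up 95.3 ± 0.91% of the pair in PG and 95.5 ± 1.80% in GC.

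Hexokinase 2, the insulin-regulated muscle form (Hk2, chr6:82725025-82774454), had 375.3, 434.8 and 390.2 CPM in PG, against 388.2, 328.6 and 315.1 CPM in GC. The highest value was a PG library, but GC replicate 1 lay above PG replicate 1. PG over GC gave a log2 fold change of 0.22 ± 0.13 (edgeR adjusted p = 0.565). Hk1, the housekeeping form, averaged 183 ± 17.2 CPM in PG and 179 ± 22.0 in GC. With a log2 fold change of 0.03 ± 0.14, it turned negative without PG replicate 3 or without GC replicate 3.

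Phosphofructokinase, the committed step of glycolysis, is built from a muscle (Pfkm), a liver (Pfkl) and a platelet (Pfkp) subunit. The liver subunit Pfkl (chr10:77986947-78009807) had 100.8, 123.2 and 121.2 CPM in PG, against 227.4, 151.9 and 139.5 CPM in GC. The groups did not overlap, and GC replicate 1 stood well above the other two GC libraries. The log2 fold change was -0.58 ± 0.16, or 1.498-fold lower in PG, with an edgeR adjusted p of 0.119. The calls on Pfkl were split: unique reads gave an edgeR adjusted p of 0.0400 (1.08% of genes called there), DESeq2 gave 0.0268 (8.22% of genes with an adjusted p called) and limma-voom gave 0.109. Leaving out GC replicate 1 gave -0.34 with an edgeR adjusted p of 0.518, and leaving out GC replicate 3 gave -0.72 with 0.0414. Over all settings run, adjusted p-values of Pfkl by edgeR, DESeq2 or limma-voom lay between 0.0156 and 0.518. Reads of Pfkl were 99.95% unique, so shared sequence had almost no part in them.

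The muscle subunit Pfkm (chr15:98092589-98132447) was the main form. It had 808.4, 894.5 and 951.4 CPM in PG, against 1038, 875.7 and 909.9 CPM in GC, and the groups overlapped (log2 fold change -0.09 ± 0.12, edgeR adjusted p = 0.863). Pfkp averaged 31.0 ± 10.7 CPM in PG and 25.6 ± 7.62 in GC, with overlap. Glucose phosphate isomerase (Gpi1), the step before phosphofructokinase, averaged 323 ± 14.9 CPM in PG and 396 ± 62.7 in GC, a log2 fold change of -0.29 ± 0.13 (edgeR adjusted p = 0.433) with no overlap. With unique reads, 46.0% of its total, that log2 fold change was -0.17.

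The bifunctional enzymes of the PFKFB family make and break fructose 2,6-bisphosphate, the activator of phosphofructokinase, and Pfkfb2 encodes the form known from heart. Pfkfb2 (chr1:130689043-130729253) had 69.5, 48.7 and 47.0 CPM in PG, against 31.8, 30.03 and 34.5 CPM in GC. Every PG library lay above every GC library, and PG replicate 1 was the highest. The log2 fold change was 0.78 ± 0.20, or 1.72-fold higher in PG, and its edgeR adjusted p of 0.0674 was the smallest among the 30 genes. However, 22 of its 708 exon reads were unique (3.11%), so the count rested almost wholly on reads that also fit elsewhere, and 628 further reads, 47.0% of the reads on the gene, lay in its introns. Too few unique reads were left for a test. Without the filter on low counts the adjusted p was 0.0154 and with a minimum count of 30 it was 0.0466, both by edgeR, and without PG replicate 1 it was 0.484, the ends of its range being 0.0154 and 0.484. The other two family members were rare: Pfkfb3 had 33 reads over the PG libraries and 45 over the GC libraries (log2 fold change -0.66 ± 0.56), and Pfkfb1 had 27 and 21, below the filter.

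**Figure D2:**
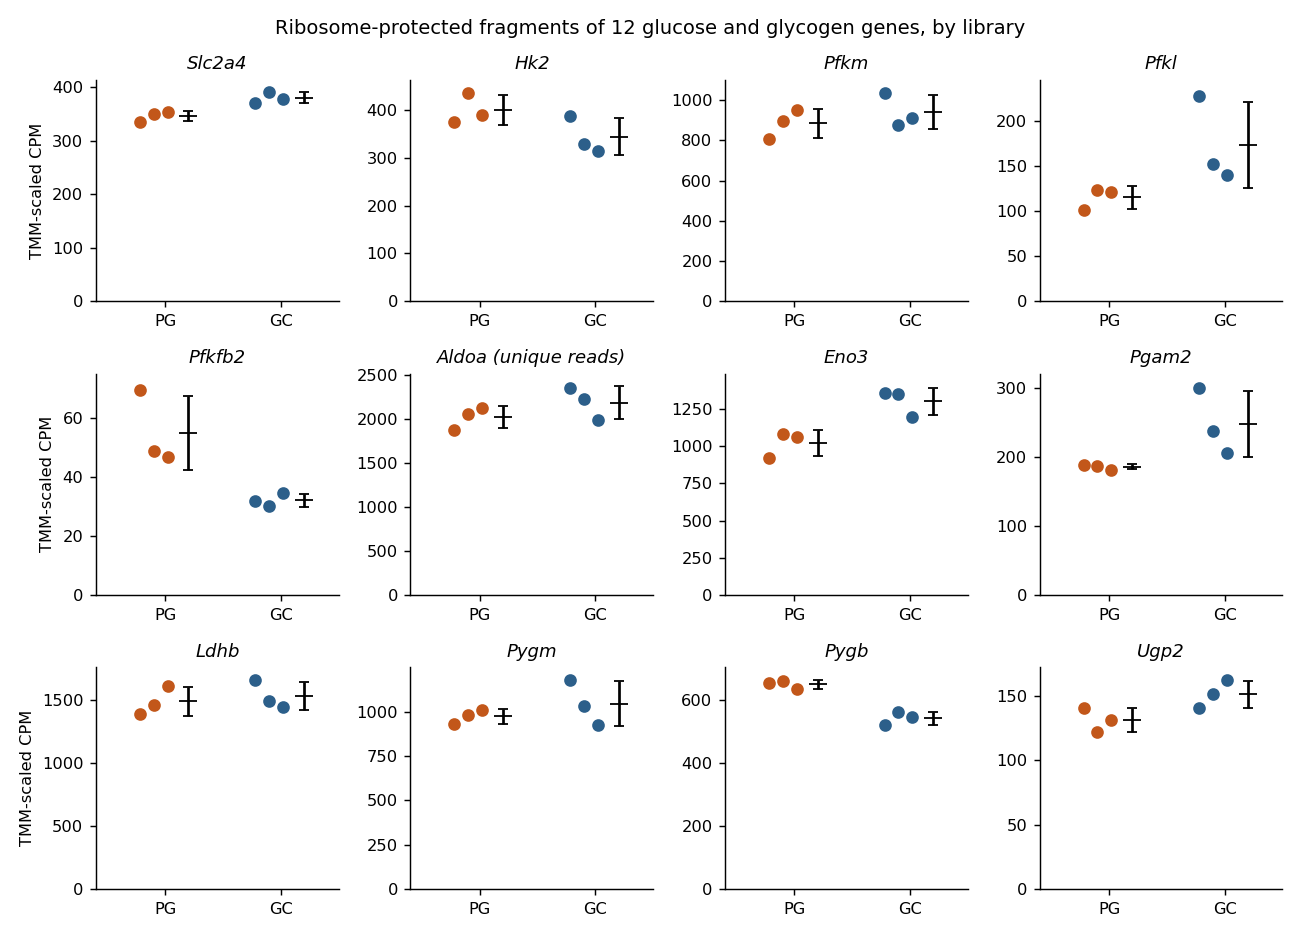
TMM-scaled CPM on the vertical axis, starting at 0, for 12 genes by library: dots are the 3 PG and 3 GC libraries, and the bar beside them is the mean ± SD. PG dots lie below GC dots for Slc2a4, Pfkl, Eno3 and Pgam2 and above them for Pfkfb2 and Pygb.

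Aldolase A (Aldoa, chr7:126795234-126800994), which splits fructose 1,6-bisphosphate, was counted by unique reads because it has processed pseudogenes. It had 1875, 2057 and 2126 unique CPM in PG, against 2344, 2224 and 1982 unique CPM in GC. The groups overlapped, with a log2 fold change of -0.11 ± 0.11 (edgeR adjusted p = 0.791). Triose phosphate isomerase (Tpi1), which interconverts the products of aldolase, averaged 393 ± 16.1 CPM in PG and 471 ± 57.1 in GC. PG over GC gave -0.26 ± 0.12 on the log2 scale (edgeR adjusted p = 0.470), and the highest PG library (410.43 CPM) lay only just below the lowest GC library (410.51 CPM). Gapdh, the oxidative step, had very few unique reads, 56 over the PG libraries and 80 over the GC libraries, or 9.17% of its total. Its unique CPM averaged 10.2 ± 1.49 in PG and 15.9 ± 4.11 in GC, without overlap, a log2 fold change of -0.64 ± 0.41 (edgeR adjusted p = 0.622). Its total reads gave -0.32 ± 0.15.

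Within lower glycolysis, the muscle enolase Eno3 (chr11:70653125-70662513), which makes phosphoenolpyruvate, was the most abundant per kb by total reads. It had 923.2, 1080 and 1058 CPM in PG, against 1356, 1351 and 1197 CPM in GC. The groups did not overlap, and each GC library lay over 100 CPM above the highest PG library. Its log2 fold change was -0.35 ± 0.12, or 1.28-fold lower in PG. edgeR gave an adjusted p of 0.229, DESeq2 0.00899 and limma-voom 0.0884, with up to 0.581 (edgeR) without PG replicate 1, and all reads of Eno3 were unique.

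The muscle phosphoglycerate mutase Pgam2 (chr11:5801637-5803796), whose promoter held the MEF2 match, moves the phosphate group before the enolase step. It had 188.6, 186.9 and 181.7 CPM in PG, against 299.6, 238.1 and 205.7 CPM in GC. The PG libraries were nearly alike, and the GC libraries were spread out above them. The log2 fold change was -0.41 ± 0.14, or 1.33-fold lower in PG, with an edgeR adjusted p of 0.242, and without GC replicate 1 it was -0.25. All its reads were unique.

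The other 4 genes of the stretch shared many reads with other places in the genome. Pgk1, phosphoglycerate kinase, which yields ATP, averaged 288 ± 45.4 CPM in PG and 364 ± 27.0 in GC (log2 fold change -0.34 ± 0.13, edgeR adjusted p = 0.342), with 8.47% unique reads. Eno1, the widely expressed enolase, averaged 93.6 ± 18.5 CPM in PG and 122 ± 28.6 in GC, with overlap. Pkm, pyruvate kinase, the last step and the other that yields ATP, averaged 1165 ± 145 CPM in PG and 1431 ± 177 in GC, also with overlap (log2 fold change -0.30 ± 0.13, edgeR adjusted p = 0.410). Pgam1, the widely expressed mutase, averaged 16.4 ± 2.36 unique CPM in PG and 26.2 ± 10.1 in GC. Its log2 fold change was -0.66 ± 0.33 with unique reads and -0.42 ± 0.18 with total reads. In Pgk1 and Pgam1 the groups stood apart by less than 1 CPM.

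Summed over the 6 genes, total exon reads came to 2488, 2881 and 3030 CPM in PG, against 3822, 3640 and 3127 CPM in GC. The groups did not overlap, but PG replicate 3 and GC replicate 3 stood close together. Summed over all 32 genes they came to 11324 ± 773 CPM in PG and 12578 ± 1097 in GC, with overlap. PG replicate 1 and GC replicate 1 were at the far ends of the set: PG replicate 1 was the lowest of the 6 libraries in 15 of the 30 genes and GC replicate 1 the highest in 15 of the 30. At an unadjusted p below 0.05, 4 of 30 tested were lower in PG without PG replicate 1 and 5 of 30 without PG replicate 2. They were 4 of 31 without GC replicate 1 and 5 of 31 without GC replicate 2. Shares over all genes at that p-value are not given for these fits. In the same order, 25, 26, 40 and 19 of all genes tested passed the adjusted threshold, against 53 with all 6 libraries. The median of lower glycolysis stayed negative with each library left out, between -0.47 and -0.27, and all 6 genes stayed negative.

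**Figure D3:**
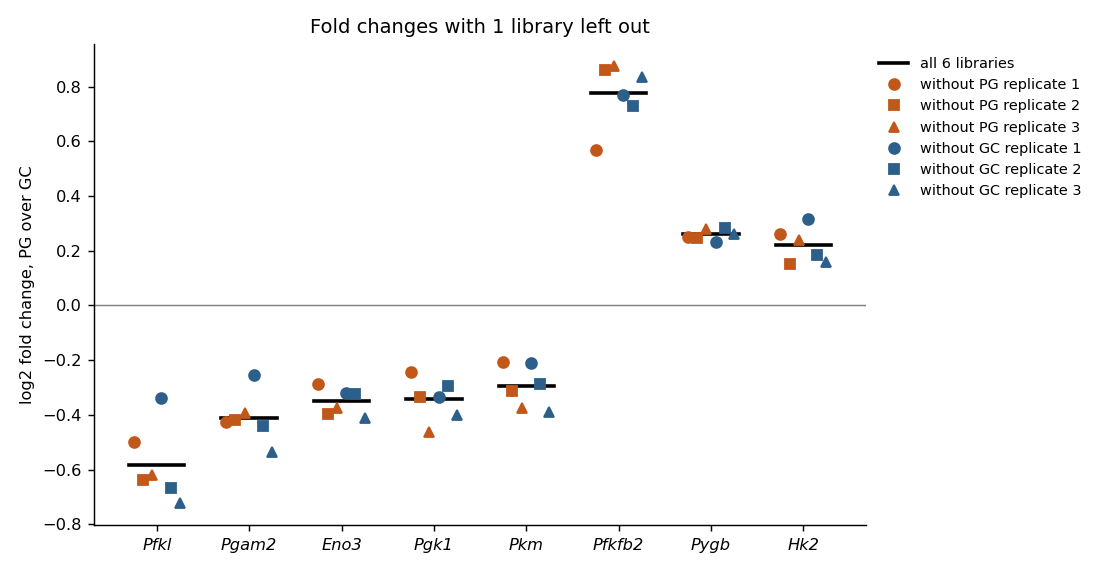
Log2 fold change of PG over GC (vertical axis) for 8 genes, with all 6 libraries (black line) and with each library left out (PG libraries orange, GC libraries blue). Each of the 8 kept its sign in the 6 fits, and Pfkl lay nearest to 0 without GC replicate 1, at -0.34.

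The lactate dehydrogenases interconvert pyruvate and lactate. Ldhb (chr6:142490249-142507957), the heart form, had the most counted total reads per kb of exon among the 32, with 947 ± 72.5 CPM per kb in PG and 974 ± 72.7 in GC. It had 1388, 1459 and 1611 CPM in PG, against 1658, 1486 and 1442 CPM in GC. The groups overlapped and the log2 fold change was -0.04 ± 0.12 (edgeR adjusted p = 0.942), with a positive sign when libraries were scaled by size alone.

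Ldha (chr7:46842274-46855627), the muscle form, had 244.5, 294.0 and 323.6 unique CPM in PG, against 268.6, 242.1 and 211.9 unique CPM in GC. The groups overlapped, and the log2 fold change was 0.26 ± 0.14 (edgeR adjusted p = 0.523). With total reads it was -0.14 ± 0.12, the opposite sign. The share of Ldha exon reads that were unique was 45.3%, 48.4% and 47.1% in PG, against 38.3%, 35.3% and 33.0% in GC. These shares did not overlap between the groups, so the reads that fit several places and the unique reads of this gene ran in different directions.

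**Figure D4:**
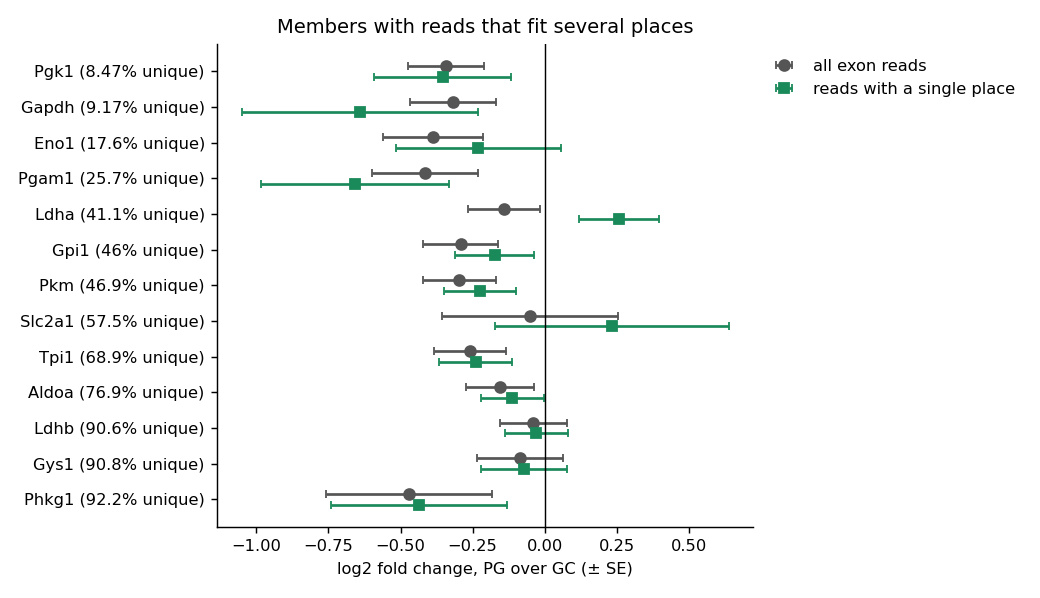
Log2 fold change of PG over GC (horizontal axis, bars ± SE) from all exon reads (grey circles) and from reads with a single place (green squares) for the 13 genes under 95% unique reads that could be tested both ways, ordered by that share. Ldha lies on opposite sides of 0, at -0.14 and 0.26, and so does Slc2a1.

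The split by read source was made after the values were seen. Among the 16 tested genes with at least 95% unique reads, 11 were negative, 4 were lower at an unadjusted p below 0.05 and 1 was higher, and the median log2 fold change was -0.12. Among the other 14 the counts were 12, 6 and 1, and the median was -0.28. All genes tested were not split in this way, so no share stands beside these counts. With unique reads for every gene, 22 of 29 tested were negative with a median of -0.17, 5 of them fell below an unadjusted p of 0.05 on the lower side and 1 on the higher side, and Pfkl was called lower (0.623% of genes tested were).

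Of the 9 glycogen genes tested, 7 were negative, with a median log2 fold change of -0.10. The muscle phosphorylase Pygm (chr19:6384408-6398464), which releases glucose 1-phosphate from glycogen, had 928.5, 982.3 and 1010 CPM in PG, against 1177, 1032 and 925.4 CPM in GC, with overlap. Its log2 fold change was -0.10 ± 0.12 (edgeR adjusted p = 0.837). The brain-type phosphorylase Pygb (chr2:150786796-150831748), which catalyses the same reaction and is also made in heart, had 655.4, 662.1 and 635.8 CPM in PG, against 522.2, 562.3 and 546.6 CPM in GC. Every PG library lay above every GC library, and both groups were tight. Its log2 fold change was 0.26 ± 0.12, or 1.198-fold higher in PG. It did not pass, with adjusted p-values of 0.427 (edgeR) and 0.0534 (DESeq2), and it stayed between 0.23 and 0.28 with each library left out.

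Phosphorylase kinase, which switches phosphorylase on, was measured through 3 of its subunits at low counts. Phkb averaged 23.8 ± 4.11 CPM in PG and 35.2 ± 3.42 in GC, without overlap, a log2 fold change of -0.55 ± 0.22 (edgeR adjusted p = 0.362). Phka1 averaged 37.1 ± 4.93 CPM in PG and 41.8 ± 8.36 in GC, and Phkg1 averaged 14.3 ± 2.96 in PG and 20.2 ± 4.63 in GC, both with overlap.

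Of the synthesis genes, Ugp2 (chr11:21321126-21371267), which makes UDP-glucose, was the most abundant per kb of exon among the 5 listed rows. It had 140.72, 121.9 and 131.0 CPM in PG, against 140.65, 151.0 and 161.9 CPM in GC, so the groups met at replicate 1. The log2 fold change was -0.21 ± 0.14 (edgeR adjusted p = 0.636). Glycogen synthase (Gys1), the branching enzyme (Gbe1) and the primer protein glycogenin (Gyg) had log2 fold changes of -0.09, -0.07 and 0.13, all with overlap. The row named Pgm1 in the table lies on chromosome 5, where RefSeq places Pgm2, and had 18 reads in PG and 11 in GC, below the filter. The gene that RefSeq names Pgm1, which links glucose 1-phosphate and glucose 6-phosphate, is the row named Pgm2 on chromosome 4. It averaged 229 ± 31.2 CPM in PG and 247 ± 26.7 in GC (log2 fold change -0.11 ± 0.14, edgeR adjusted p = 0.845).

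Shares within pairs of isozymes were computed per kb of exon, a length that includes untranslated parts. Pfkm made up 92.3%, 91.5% and 92.1% of Pfkm and Pfkl together in PG, against 87.2%, 89.5% and 90.6% in GC. The groups did not overlap, a difference of 2.85 points with an exact two-sided permutation p of 0.1, the smallest that 3 against 3 can give. Without GC replicate 1 the difference was 1.86 points. Pygm made up 67.9%, 68.9% and 70.4% of Pygm and Pygb together in PG, against 77.1%, 73.3% and 71.7% in GC. These too did not overlap, with a difference of -4.96 points and the same exact permutation p of 0.1, for each pair before any adjustment over the 9 pairs computed. The fold changes of Pfkl and Pygb enter these shares, so they are no separate evidence.

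The other pairs overlapped. Hk2 made up 75.8 ± 2.03% of Hk2 and Hk1 in PG and 73.3 ± 1.75% in GC. Pgam2 made up 89.6 ± 0.40% of the mutases in PG and 89.6 ± 0.73% in GC, and Eno3 97.1 ± 0.41% of the enolases in PG and 97.1 ± 0.51% in GC. These shares rest on total reads, and with unique reads Pgam2 made up 97.4% in PG and 96.9% in GC, and Eno3 99.5% in both. Ldhb made up 88.5 ± 0.50% of the lactate dehydrogenases in PG and 87.7 ± 0.46% in GC with total reads, and 93.7% in PG and 94.8% in GC with unique reads.

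**Figure D5:**
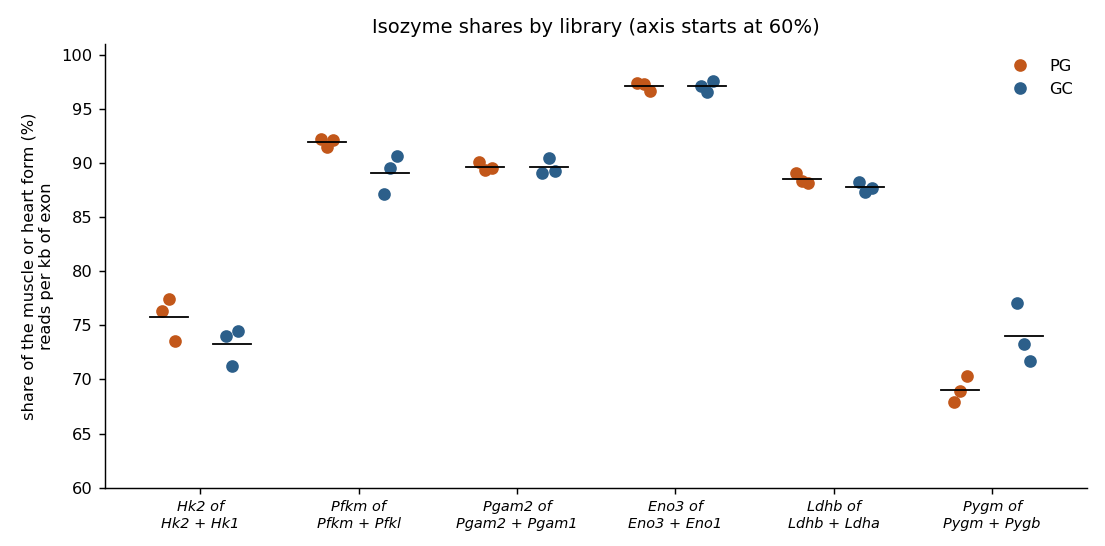
Share of the muscle or heart form within 6 pairs of isozymes (vertical axis in percent, from 60%, reads per kb of exon), with 3 PG and 3 GC libraries as dots and the mean as a line. PG and GC do not overlap for Pfkm against Pfkl and for Pygm against Pygb.

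Levels per kb of exon kept nearly the same order in both groups. They rest on total exon reads, and the rule for counting reads that fit several places is not known. Ranks of genes with few unique reads are therefore uncertain. Gapdh, with 9.17% unique reads, had 32.9 ± 0.77 CPM per kb in PG and 41.1 ± 5.30 in GC. After Ldhb came Eno3 with 587 ± 48.8 CPM per kb in PG and 748 ± 52.2 in GC, then Aldoa with 459 ± 36.7 in PG and 511 ± 51.3 in GC (total reads). Pygm, at 303 ± 12.8 in PG and 325 ± 39.3 in GC, and Pfkm, at 299 ± 24.3 in PG and 318 ± 28.9 in GC, did not differ beyond their spread. Pkm and Pgam2 followed, in this order in PG and the reverse in GC, within their spread. The lowest were Pfkfb3, Pfkfb1 and Pgm1, each under 1 CPM per kb.

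Among 88 other carbohydrate genes, listed by role and not by how they moved, 64 were tested and none passed by edgeR. At an unadjusted p below 0.05, 3 were higher and 2 lower, where 4.82% and 5.62% of all genes tested were. limma-voom called none either. DESeq2 also called none, but it gave an adjusted p to only 1497 genes. How many of these carbohydrate genes were among them is not given, and genes without an adjusted p could not be called there. Their log2 fold changes were positive for 32 and negative for 32, with a median of 0.00. Bsg, the partner protein of the lactate transporters, averaged 524 ± 62.4 CPM in PG and 609 ± 47.9 in GC, and the lactate transporter Slc16a1 averaged 182 ± 20.7 in PG and 187 ± 7.23 in GC. Other transporters and hexokinases were rare, with Slc2a8 at 6.92 ± 1.77 CPM in PG and 8.24 ± 3.05 in GC. In the lysosome, Gaa, which digests glycogen, averaged 163 ± 13.8 CPM in PG and 171 ± 38.8 in GC.

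In the pentose phosphate and polyol branches, Taldo1 had a log2 fold change of -0.42 ± 0.24 and Akr1b3 one of -0.05 ± 0.14, with 1.88% unique reads. Of the insulin pathway, the kinase Akt1 had a log2 fold change of 0.14 ± 0.14. Txnip, which holds back glucose uptake, had 302.7, 297.3 and 226.8 CPM in PG, against 155.6, 559.3 and 460.5 CPM in GC. GC replicate 1 was far below the other two GC libraries, and 7.75% of the reads were unique. Its log2 fold change was -0.51 ± 0.25 (edgeR adjusted p = 0.490), and without GC replicate 1 it was -0.88 with an edgeR adjusted p of 0.00357, the lowest over its settings, which reached 0.915.

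Of the transcription factors and oxygen sensors that act on glycolytic genes, Egln1 averaged 272 ± 10.1 CPM in PG and 299 ± 21.1 in GC, and Epas1 291 ± 16.5 in PG and 269 ± 13.4 in GC. The glucose-responsive factor Mlxipl, chosen after its value was seen, had the smallest p-value of these lists. The other genes of these lists with an unadjusted p below 0.05 were likewise named after their values were seen. They were Irs1, Mef2a and Foxk2 (log2 fold changes 0.43, 0.46 and 0.74) and Egln3 (-0.48). In this order their edgeR adjusted p-values were 0.362, 0.245, 0.456 and 0.402. Mef2a and Egln3 overlapped between the groups, and 19.6% of the Mef2a reads were unique. Mlxipl had 5.99, 10.8 and 9.39 CPM in PG, against 20.2, 14.4 and 18.6 CPM in GC. The groups did not overlap, and the log2 fold change was -1.02 ± 0.33 with an edgeR adjusted p of 0.207.

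Markers of other cell types were summed as well, and where no other measurement is given their part in the results above was not tested. The skeletal muscle list, all 9 of 9 with reads, summed to 966 to 1253 CPM in PG and 1443 to 2065 in GC, without overlap. Nearly all of it was Ckm, which heart muscle makes too and which was called lower (edgeR adjusted p = 0.0242). Myl1 had 95 reads in PG and 140 in GC. The other 7, among them Myh1, Myh2, Myh4 and Actn3, had 30 reads in PG and 35 in GC, where Eno3 had 8421 in PG and 9772 in GC. These 7 summed to 3.66, 3.18 and 4.23 CPM in PG, against 10.1, 2.18 and 2.80 CPM in GC. GC replicate 1, with the highest of these sums, was also the highest library in 15 of the 30 genes tested. Myh2 had 3 reads in PG and 19 in GC, and Myh4 had 2 and 5. Myh1, Mylpf, Tnnt3, Tnni2 and Actn3 had more reads in PG. Fibroblast markers summed to 550 to 559 CPM in PG and 585 to 646 in GC. The sums of endothelial, smooth muscle, macrophage and atrial markers overlapped, with Acta2 of the smooth muscle list called lower (edgeR adjusted p = 0.0321). Most atrial reads were of Nppa (log2 fold change -0.14). The atrial light chains Myl7 and Myl4 had log2 fold changes of -0.66 and -0.58 (edgeR adjusted p = 0.0852 and 0.0693), and Sln had 0.12. Erythroid markers overlapped at 961 to 1565 CPM in PG and 1143 to 1843 in GC. Kidney markers summed to 0.318 to 7.51 CPM in PG and 22.7 to 32.8 in GC, and liver markers to 6.37 to 16.97 in PG and 15.8 to 123 in GC. Kap, with 14 reads in PG and 135 in GC, and Alb, with 33 reads in PG and 222 in GC, were called lower (edgeR adjusted p = 0.00373 and 0.0341). No marker had 0 reads over all 6 libraries.

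The authors' deposited table, which holds their EDGE test of PG against GC, also had no gene of the 32 past a false discovery rate of 0.05, with 31 genes past it in all. Signed fold changes of the authors' deposited table were negative for 22 of the 32, and its p-values were below 0.05 for 6 of the 32. Of those 6, Pfkl, Pgam2, Eno3 and Phkb had negative fold changes, and Pfkfb2 and Pygb had positive ones. Shares over all genes of that test are not given here, so these counts stand without a background.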

How the data were processed

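Ribosome-protected fragments of 3 PG and 3 GC heart libraries were analysed. Per the labels' protocols, lysates were digested with RNase I, monosomes were pelleted through 50% sucrose and the gel cut kept 25 to 35 nt. The authors deposited 1 table of 161 columns with raw counts per gene (exon, unique exon, intron and gene reads, and expression values) and, per the file headers, RPKM, which was not used for any value. Per the file headers, the authors' own test, called EDGE, gave p-values, FDR values and a fold change, handled here as a signed score. Per the submitters' processing notes, the builds are GRCm38 and mm10; no source used here gives the aligner, counter or strandedness. Another 101 columns of single libraries stayed unused.

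For total exon reads, edgeR 4.0.16 was run in R 4.3.3 (minimum count 10 in filterByExpr, TMM, glmQLFit and glmQLFTest), with Benjamini-Hochberg adjustment over all genes tested. Gapdh, Aldoa, Ldha and Pgam1 took their values from a separate fit of unique exon reads over all genes. Log2 fold changes were computed from the deposited counts as PG over GC; standard errors follow from the F statistic. The steps were tested on simulated data. DESeq2 1.42.0, limma 3.58.1, other scalings, filters and read types, a replicate block and leaving out each library were alternatives. Same-numbered libraries did not deviate together (correlations -0.008, -0.032 and -0.014), so numbers were not taken as pairs. No molecular identifiers are given, so reads may include PCR copies.

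The genes, lists and tests were chosen with earlier results of these data known. Values in every library are given for genes past the threshold in any of the edgeR, unique-read, DESeq2 or limma-voom fits, for the 3 smallest p-values in each direction and for the most abundant gene of each step per kb; of other lists, called genes or the 2 most abundant are named, of which 1 is not reported here. Txnip's single values, Mlxipl, Irs1, Mef2a, Foxk2, Egln3 and the Pgm2 row were added after their values were seen. Promoters came from RefSeq and matched 31 of the 32 genes.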

Additional observations from a re-analysis of the deposited data

How the results depend on the processing

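The count of all genes called was 53 of 9124 tested. It was 123 of the 1497 genes with an adjusted p in DESeq2, and 80 of 9124 with limma-voom. Of the 32 genes, Slc2a1, Pfkp, Pfkfb1, Pfkfb2, Pfkfb3, Gapdh, Pgam1, Phka1, Phkb, Phkg1, Gbe1 and Pgm1 had no adjusted p in DESeq2. These could not be called there. No filter called 181 of 16855, a minimum count of 30 called 79 of 5928, and unique reads called 90 of 8342. The authors' expression values called 88 of 8498. With 1 library left out, 19 to 102 were called. PG replicate 1 left 25 of 9343, PG replicate 2 left 26 of 9387, GC replicate 2 left 19 of 9736 and GC replicate 3 left 102 of 9388. Scaling by library size alone called 25 higher and 16 lower, against 23 higher and 30 lower with TMM. Of the 32 genes, DESeq2 called 2 (Pfkl and Eno3), no filter called 2 (Pfkl and Pfkfb2), a minimum count of 30 called 1 (Pfkfb2), unique reads and the authors' expression values each called 1 (Pfkl), and leaving out 1 library called 0 to 1 (Pfkl without GC replicate 3). The replicate block left 22 genes called and none of the 32, with 5 lower and 1 higher at an unadjusted p below 0.05; it changed no call among the 32 or the other carbohydrate genes, and the numbers do not pair the libraries. Of the other carbohydrate genes, 1 (Txnip) was called with no filter, and 0 to 1 with 1 library left out (Txnip without GC replicate 1). The median log2 fold change of the tested genes among the 32 lay between -0.20 and -0.10 under every setting run. The Ldhb share differed by 0.77 points between PG and GC, and by -1.05 points with unique reads.

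Of 887 single-gene values under another setting, 863 kept their sign and 24 did not. Slc2a1 turned to 0.0089 with library size alone, 0.022 with limma-voom, 0.23 with unique reads, 0.14 with expression values and 0.013 with gene reads; library size alone also turned Ldhb to 0.013, Slc16a1 to 0.0076, Gaa to 0.0037 and Akr1b3 to 0.0047; Ldha was -0.14 with total and -0.12 with gene reads. With 1 library left out, Slc2a1 ranged between -0.26 and 0.30, Ldhb ranged between -0.10 and 0.022, Gys1 ranged between -0.19 and 0.047, Slc16a1 ranged between -0.13 and 0.0088, Akr1b3 ranged between -0.14 and 0.0038, Gbe1 ranged between -0.19 and 0.055, Hk1 ranged between -0.075 and 0.092 and Gaa ranged between -0.18 and 0.14. The causes were not tested. Low counts limit Pfkfb1, Pfkfb3, Pgm1 and the unique reads of Gapdh and Pgam1, and reads that fit several places limit Pfkfb2, Pgk1, Eno1 and Ldha.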
